A study of Homo sapiens with 36 samples.

Results

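A set of 6 sequencing libraries describes what interleukin-1β (IL-1β) did to A549 cells after 15 days of continuous exposure. A549 is an established line grown from a human lung adenocarcinoma and widely used as a model of non-small cell lung cancer, so every library here comes from 1 cell line. The libraries were chosen by time point: the 3 libraries of cells kept with IL-1β at 1 ng/ml for 15 days and the 3 libraries of cells kept for the same 15 days without it, which is 6 of the 36 libraries of the series. Both groups grew in the same serum-containing medium and were split every few days, the treated cells receiving fresh cytokine each time, and no transgene or deletion is named for either. The comparison asks which transcripts were at a different level when the cytokine had been present long enough for cells to undergo an epithelial-mesenchymal transition (EMT). The other 30 libraries hold cells at day 6, at day 21 and after the cytokine was removed, and serve below only to estimate the spread and to set day 15 beside the times before and after it.

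IL-1β is an inflammatory cytokine released by macrophages and by injured tissue. It binds the receptor IL1R1 with its partner IL1RAP, and the kinases IRAK1, IRAK2 and IRAK4 then pass the signal to the transcription factors NF-κB and AP-1, which switch on chemokines, cytokines and inhibitors that limit the same pathway. EMT is a programme in which epithelial cells lose cell-cell junctions and keratins and take on mesenchymal features under transcription factors of the SNAI, ZEB and TWIST families.

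The 6 libraries held 10856660 to 18829461 reads on genes. IL-1β replicate 3 stood apart from the other 5: it was the shallowest, mitochondrial genes took 15.3% of its reads against 5.91% to 7.37%, and its 10 most abundant genes took 14.6% against 6.00% to 7.82%. Log2 CPM (read counts scaled to a common library size) correlated across genes at 0.991 between IL-1β replicates 1 and 2, and at 0.938 and 0.933 between each of them and replicate 3. Control replicate 3 also lay farther from its own group, at 0.985 and 0.986 with the other two controls, which correlated at 0.992 with each other. No pair agreed within sampling noise, so none was counted as 1 sample. Because of these values, calls and counts of named genes and lists that change without IL-1β replicate 3 are given below. Among the genes named below, NFKB2, ICAM1, SCD, SPARC, IL1R2, SLPI, MUC5AC, ITGB4, AGT, IFI44, SLC39A8, TKT, ALDH1A1, ISG20, FOSL1, JUN, KRT3, COL4A6 and PRODH2 were called with all libraries but not without control replicate 3.

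The cells carried epithelial marks, and most defining markers of other cell types were at or near 0. Of 5 epithelial markers tested, 3 fell with IL-1β (CDH1, KRT8 and KRT18, described below), with a list median log2 fold change of -1.73. Keratin 7 was at 1625, 1722 and 1522 CPM in control replicates 1 to 3 and at 1654, 1839 and 1146 CPM in IL-1β replicates 1 to 3. Among 10 leukocyte markers, the T cell, B cell and common leukocyte genes CD3E, MS4A1 and PTPRC had between 0 and 0.0591 CPM in every library, and only CD14 and ITGAM were high enough to be tested. The summed level of the 10 markers was 12.6 to 17.6 CPM in the controls and 10.5 to 13.2 CPM with IL-1β. The endothelial gene CDH5 and the fibroblast genes COL3A1 and LUM were at 0 in all 6 libraries. The summed level of the 6 fibroblast markers was 1.25 to 1.93 CPM in the controls and 2.67 to 2.90 CPM with IL-1β, most of it from COL1A1, which did not pass the test. KRT19, another keratin of the epithelial list, was near 0 throughout, and EPCAM was at 0.23 to 1.45 CPM.

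Of 19180 genes tested at day 15, 372 were higher with IL-1β and 442 were lower (edgeR's quasi-likelihood test over all 36 libraries, Benjamini-Hochberg adjusted p below 0.05 and a change of more than 2-fold). These are 1.94% and 2.30% of the genes tested, and they are the background against which each gene list is read below. The median log2 fold change was 1.76 among the higher genes and -1.84 among the lower ones, and 149 of the higher and 184 of the lower genes changed by more than 4-fold. Protein-coding genes made up 333 of the higher and 341 of the lower genes, while pseudogenes made up 13 and 59. Reads of a pseudogene and its parent gene can be exchanged in counting, so the called pseudogenes are given mainly as a number. Many of the lower ones are copies of the keratin genes KRT8 and KRT18, such as KRT8P41 and KRT18P28. Their log2 fold changes of -2.33 and -2.24 lie near those of KRT8 (-2.39) and KRT18 (-2.28). The 442 lower genes and the 2.30% share may therefore count these parent genes repeatedly. The control and IL-1β libraries did not overlap for 364 of the 372 higher and 439 of the 442 lower genes. The share was 25.4% over all genes tested and 22.1% among those not called. Genes were called on this same difference, so the pattern is partly how they were picked. In these mixed-cell measurements, fewer cells making a transcript and less transcript in each cell cannot be told apart.

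Without IL-1β replicate 3, 330 genes (1.68% of 19592 tested) were higher and 359 (1.83%) lower. Among the 372 higher genes, 282 were called again and all 372 kept their direction. Among the 442 lower genes, 303 were called again and all 442 kept their direction. The genes that dropped out had smaller changes: the 90 higher genes had a median log2 fold change of 1.32 with the library and 0.98 without it. Leaving out control replicate 3 instead left 329 genes higher and 256 lower, so the number of lower genes rested on that control library more than on any other. Called in each of the 6 fits that left out 1 library were 233 of the higher and 209 of the lower genes.

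**Figure D1:**
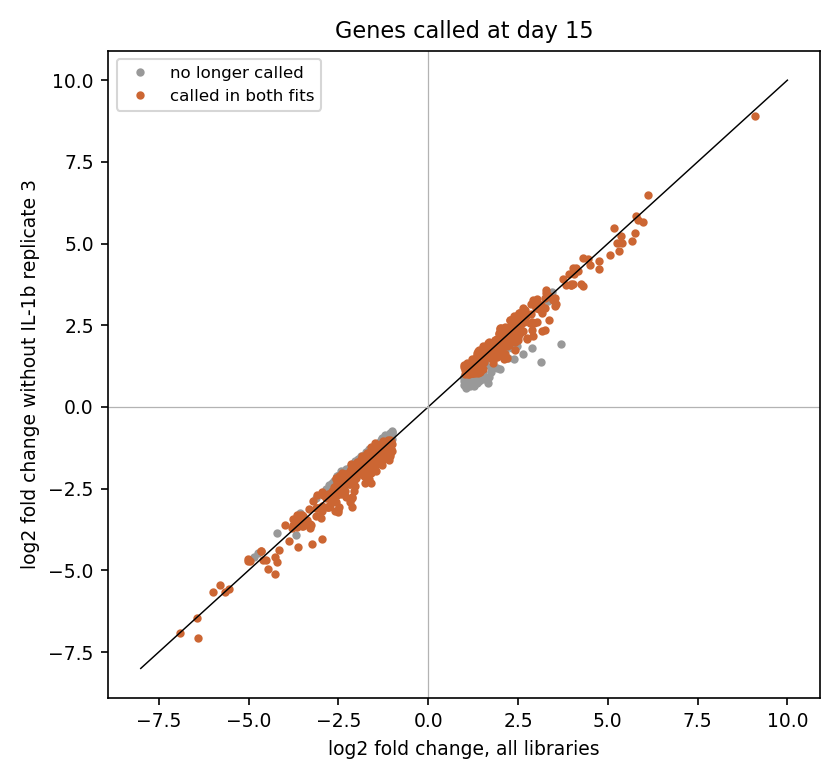
Log2 fold change (IL-1β minus control, day 15) of the 814 called genes, with all libraries on the x axis and without IL-1β replicate 3 on the y axis; the line marks equal values. Orange points stayed called (282 higher and 303 lower) and grey points did not (90 higher and 139 lower), with no point crossing 0.

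Secreted inflammatory genes were among the largest increases. Of 12 CXC chemokines listed, 7 were tested, 5 were higher and 1 was lower. CXCL8, CXCL1, CXCL2, CXCL3 and CXCL5, which attract neutrophils, rose, and CXCL16, a membrane-bound chemokine, fell. CXCL8 (interleukin-8, chr4:74606236-74609433 in GRCh37) was at 1.06, 0.650 and 2.92 CPM in control replicates 1 to 3 and at 86.6, 78.8 and 108 CPM in IL-1β replicates 1 to 3, a log2 fold change of 5.85 ± 0.42 (SE, adjusted p = 1.9e-10). The lowest treated library was far above the highest control, with control replicate 3 the highest of the controls. CXCL1 was at 2.48, 2.22 and 5.44 CPM against 130.3, 123 and 169 CPM (5.37 ± 0.31), again with no overlap. CXCL5 started from a higher level, 220.1, 209 and 194 CPM, and reached 1749.5, 1675 and 1541 CPM, a log2 fold change of 3.00 ± 0.24 that all 3 treated libraries shared closely. CXCL1, CXCL2 and CXCL3 are near-identical in parts of their sequence, so reads could be exchanged among them. Among 10 CC and CX3C chemokines, 6 were tested and 2 rose: CCL20, which attracts dendritic cells and lymphocytes through CCR6 (5.24 ± 0.42), and CCL2, the monocyte chemoattractant (3.98 ± 0.41).

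Of 19 cytokines and colony stimulating factors, 14 were tested, 8 rose and none fell, with and without IL-1β replicate 3. The list's median log2 fold change was 1.88, against -0.02 over all genes tested. IL6, an inducer of the acute-phase response, was at 3.19, 3.03 and 3.91 CPM in the controls and at 136, 135 and 280.2 CPM in the treated libraries, with IL-1β replicate 3 well above the other two. Its log2 fold change was 5.76 ± 0.59 (SE, adjusted p = 9.8e-08), and 5.32 without that library. The colony stimulating factors CSF3 and CSF2, growth factors of granulocytes and macrophages, were close to absent in the controls, with 2 reads of CSF3 and 1 of CSF2 over all 3 libraries. CSF3 reached 4.16, 3.72 and 0.931 CPM, which is 92.5 times the pooled control level (95% exact counting interval 25.2 to 771), and IL-1β replicate 3 was the lowest treated library. IL1B, the gene of the cytokine itself, was at 2.10, 2.32 and 4.03 CPM with 2 reads over the 3 controls, 71.8 times the control level (19.4 to 599). IL1A (4.26 ± 0.68), IL32 (1.94 ± 0.30), IL11 (2.00 ± 0.43) and CSF1 (1.30 ± 0.26) rose as well on the log2 scale.

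**Figure D2:**
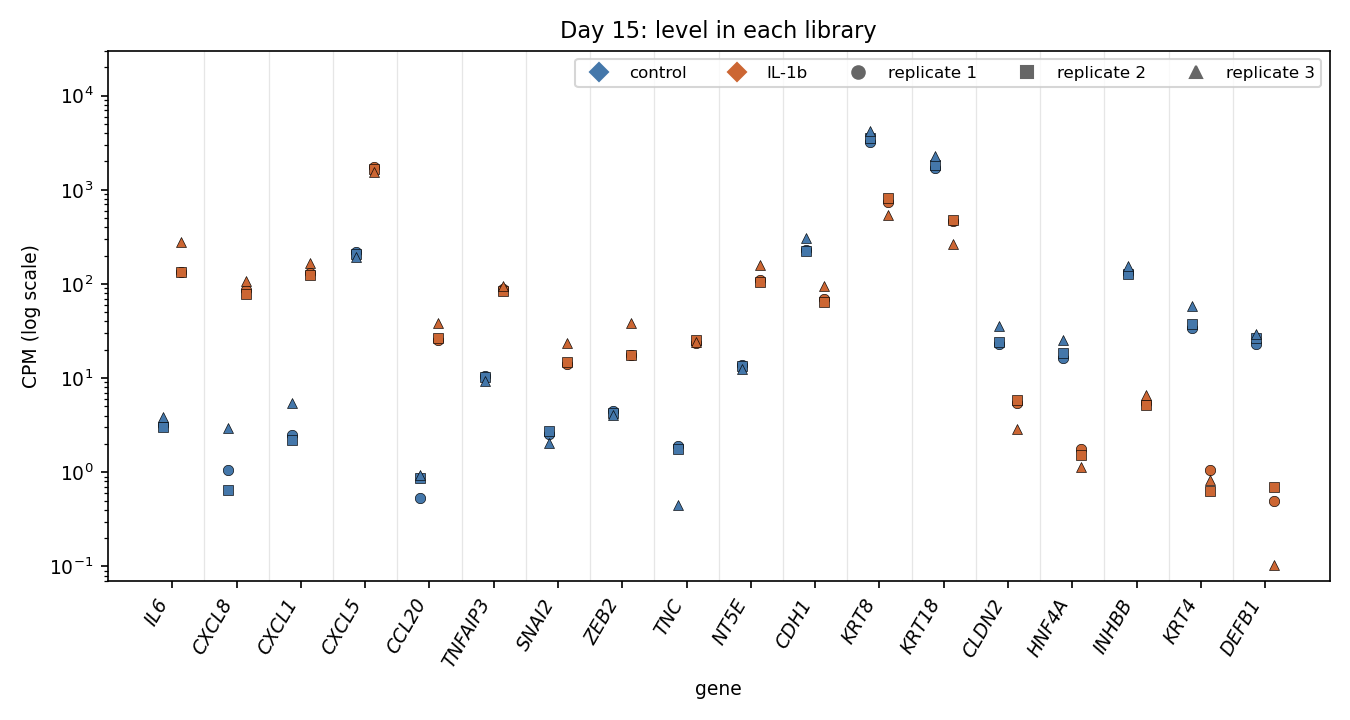
CPM of 18 genes named in the text in each of the 6 libraries of day 15, on a logarithmic axis, with controls in blue, IL-1β in orange and a symbol for each replicate. In every gene shown the 3 treated libraries lay wholly above or wholly below the 3 controls.

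The transcript with the largest fitted increase was MIR3142HG (ENSG00000253522, chr5:159865601-159914433 in GRCh37, plus strand), a long non-coding RNA. It had 1 read over the 3 controls and was at 12.7, 12.1 and 18.1 CPM with IL-1β, 756 times the pooled control level with a counting interval of 135 to 29895. The fitted log2 fold change was 9.11 ± 0.72, a value that depends on how reads near 0 are handled. MIR3142HG is the host of the microRNA miR-146a, a known NF-κB target that represses IRAK1 and TRAF6. In RefSeq's GRCh38.p14 annotation the mature miRNA lies inside the host gene, at chr5:160485372-160485393 on the plus strand. Mature miRNAs were not measured here. The mature sequence is shown with its seed (bases 2 to 8) in capitals, as the product this host transcript is known for.
hsa-miR-146a-5p: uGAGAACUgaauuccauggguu

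The signalling receptor did not pass the test, and the genes around it moved in both directions. Of 21 genes of IL-1 receptor signalling, 17 were tested, 1 rose and 1 fell. IL1R1, the signalling receptor, had a log2 fold change of -0.18 ± 0.19 (adjusted p = 0.66) and IL1RAP one of 0.79 ± 0.26 (adjusted p = 0.075). IRAK2, a kinase of the receptor complex, rose from 17.4, 15.1 and 23.1 CPM to 85.8, 95.9 and 72.4 CPM (2.19 ± 0.25). IL1R2, the decoy receptor that binds IL-1 without signalling, fell from 0.710, 0.596 and 0.989 CPM to 0.150, 0.0581 and 0.310 CPM (-2.27 ± 0.66, adjusted p = 0.032). IL1R2 passed the test without IL-1β replicate 3 but not when any other library was left out, except control replicate 2.

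Inhibitors that NF-κB switches on against itself were raised at day 15. Of 19 NF-κB subunits and feedback inhibitors, all were tested, 10 rose and none fell, which is 52.6% against a background of 1.94%. TNFAIP3 (A20), a ubiquitin-editing enzyme that shuts off the pathway, was at 10.4, 10.2 and 9.40 CPM in the controls and 88.2, 84.2 and 94.8 CPM with IL-1β. Its log2 fold change of 3.15 ± 0.22 (SE, adjusted p = 9.7e-11) was hardly moved by leaving out IL-1β replicate 3 (3.11). ZC3H12A, an RNase that degrades inflammatory mRNAs, was at 113, 123 and 44.4 CPM against 13.0, 11.4 and 12.4 CPM, with IL-1β replicate 3 far below the other treated libraries but still above the controls. TNIP3, a partner of TNFAIP3, rose (3.17 ± 0.59), as did NFKBIZ, an atypical inhibitor that also activates some genes (2.37 ± 0.25). NFKBIA, the inhibitor IκBα, rose by 1.5 ± 0.19, TRAF1 by 2.27 ± 0.48, BIRC3 by 2.06 ± 0.35 and TNIP1 by 1.81 ± 0.18 on the log2 scale. Of the subunits, NFKB2 passed both thresholds at 1.01 ± 0.27, though not without control replicate 3, and NFKB1 passed the test at 0.73 ± 0.11 but not the 2-fold limit. RELA had a log2 fold change of -0.10 ± 0.19 (adjusted p = 0.8). Without IL-1β replicate 3 the count was again 10, with BIRC2 below 2-fold and NFKBIE above it.

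The windows of 250 bases before the start of 5 of these genes are shown, 4 with a match and 1 without, because NF-κB is known to bind a short G- and C-rich element, the κB site, and the genes rose. Sequences are from RefSeq (GRCh38.p14). All 10 NF-κB-list genes that rose and MIR3142HG and IL1B had at least 1 window, and CSF3, also chosen by the rule, is named only. Matches to the κB consensus on either strand are in capitals. A match is a description of letters and not a binding site shown by these data.
MIR3142HG, chr5:160468001-160468250 (plus strand): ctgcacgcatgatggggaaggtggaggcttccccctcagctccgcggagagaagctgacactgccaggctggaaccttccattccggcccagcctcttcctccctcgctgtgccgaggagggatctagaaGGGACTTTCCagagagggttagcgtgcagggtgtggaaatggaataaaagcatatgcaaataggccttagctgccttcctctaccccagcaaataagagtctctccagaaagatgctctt
TNFAIP3, chr6:137867009-137867258 (plus strand): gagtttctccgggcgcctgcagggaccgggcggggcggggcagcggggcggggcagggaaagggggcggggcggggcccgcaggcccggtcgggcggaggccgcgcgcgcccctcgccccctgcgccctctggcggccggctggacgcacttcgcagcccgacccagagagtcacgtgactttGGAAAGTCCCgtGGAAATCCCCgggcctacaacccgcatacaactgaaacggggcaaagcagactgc
NFKBIA, chr14:35404750-35404999 (minus strand): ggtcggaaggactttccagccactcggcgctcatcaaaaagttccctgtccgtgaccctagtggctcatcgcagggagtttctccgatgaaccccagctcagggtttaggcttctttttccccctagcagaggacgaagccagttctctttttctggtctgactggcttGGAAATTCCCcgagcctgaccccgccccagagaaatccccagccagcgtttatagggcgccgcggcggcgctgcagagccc
BIRC3, chr11:102317234-102317483 (plus strand): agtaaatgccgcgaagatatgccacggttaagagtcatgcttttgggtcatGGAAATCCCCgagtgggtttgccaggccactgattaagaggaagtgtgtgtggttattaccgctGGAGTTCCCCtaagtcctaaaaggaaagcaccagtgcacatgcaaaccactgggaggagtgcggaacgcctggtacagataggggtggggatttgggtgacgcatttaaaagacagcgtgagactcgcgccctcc
IL1B, chr2:112836780-112837029 (minus strand): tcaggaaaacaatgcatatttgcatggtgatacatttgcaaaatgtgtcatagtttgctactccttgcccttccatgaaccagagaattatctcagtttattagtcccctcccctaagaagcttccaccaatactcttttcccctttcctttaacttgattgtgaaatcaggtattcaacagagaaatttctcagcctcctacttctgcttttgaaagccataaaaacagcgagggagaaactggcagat
TNFAIP3 held 2 matches close to its start, at -67 and -55, BIRC3 held 2 farther away at -199 and -135, NFKBIA held 1 at -81 and MIR3142HG held 1 at -120. IL1B held none in this window, nor did ZC3H12A, BIRC2 and TRAF1 in any of theirs, which are not shown. Over the 12 genes with a window, 8 had a match in at least 1 of their windows. Among all 35116 promoter windows, 9.96% held the κB consensus. By gene, 15.3% of the 11640 tested genes with a window had a match, against 25.5% of 267 genes higher at day 15 and 13.5% of 266 lower. The AP-1 motif TGANTCA, searched on both strands, was in 6.50% of tested genes, 17.6% of the higher and 8.27% of the lower ones. The motif CAGGTG, an E-box of the kind SNAI and ZEB proteins bind, was in 20.6% of tested genes, 23.2% of the higher and 26.3% of the lower ones. These shares carry no test.

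Of 10 AP-1 factors, 9 were tested, 2 rose and none fell. Only 3 of the 9 had a log2 fold change above 0, and the list's median was -0.19. FOSL1 was at 49.1, 47.5 and 12.8 CPM in the controls and 175, 184 and 79.0 CPM with IL-1β (2.00 ± 0.54, adjusted p = 0.02), and JUN was at 24.4, 22.8 and 14.7 CPM and 66.0, 71.9 and 25.6 CPM (1.41 ± 0.32, adjusted p = 0.0043). Both were lowest in replicate 3 of either group. Without control replicate 3 neither passed the test (adjusted p = 0.15 and 0.051).

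Of 7 immune checkpoint ligands tested, of 12 listed, 2 rose and none fell, and the list's median log2 fold change was 0.11. PDCD1LG2 (PD-L2) was at 1.10, 0.813 and 1.76 CPM with 2 reads over the controls, 31.4 times the pooled control level (8.28 to 266). CD274 (PD-L1) was at 0.710, 0.542 and 0.693 CPM in the controls and 3.56, 3.02 and 5.17 CPM with IL-1β, a log2 fold change of 2.57 ± 0.50 (SE, adjusted p = 0.00094). Of 24 interferon-stimulated genes tested, 5 rose and 1 fell, against 3 and 1 without IL-1β replicate 3. The guanylate-binding proteins GBP1 (3.54 ± 0.53), GBP2 (3.24 ± 0.54) and GBP3 (3.04 ± 0.42) rose, and ISG20 fell, though it was not called without control replicate 3. IFIT3 and IFI44 rose in the fit of all libraries but did not pass without IL-1β replicate 3 (adjusted p = 0.46 and 0.3), which had the highest GBP1, GBP2 and GBP3 levels of the 3 treated libraries. Of 14 antigen-presentation genes tested, ERAP2, a peptidase that trims antigens, rose (1.40 ± 0.26). ICAM1 (1.94 ± 0.59, adjusted p = 0.043) and PTGS2, the prostaglandin-forming enzyme COX-2 (2.01 ± 0.59, adjusted p = 0.035), passed narrowly with all libraries. Neither passed without IL-1β replicate 3, and the PTGS2 level of 0.591, 0.867 and 4.80 CPM in the controls overlapped the 4.66, 4.76 and 16.7 CPM with IL-1β.

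**Figure D3:**
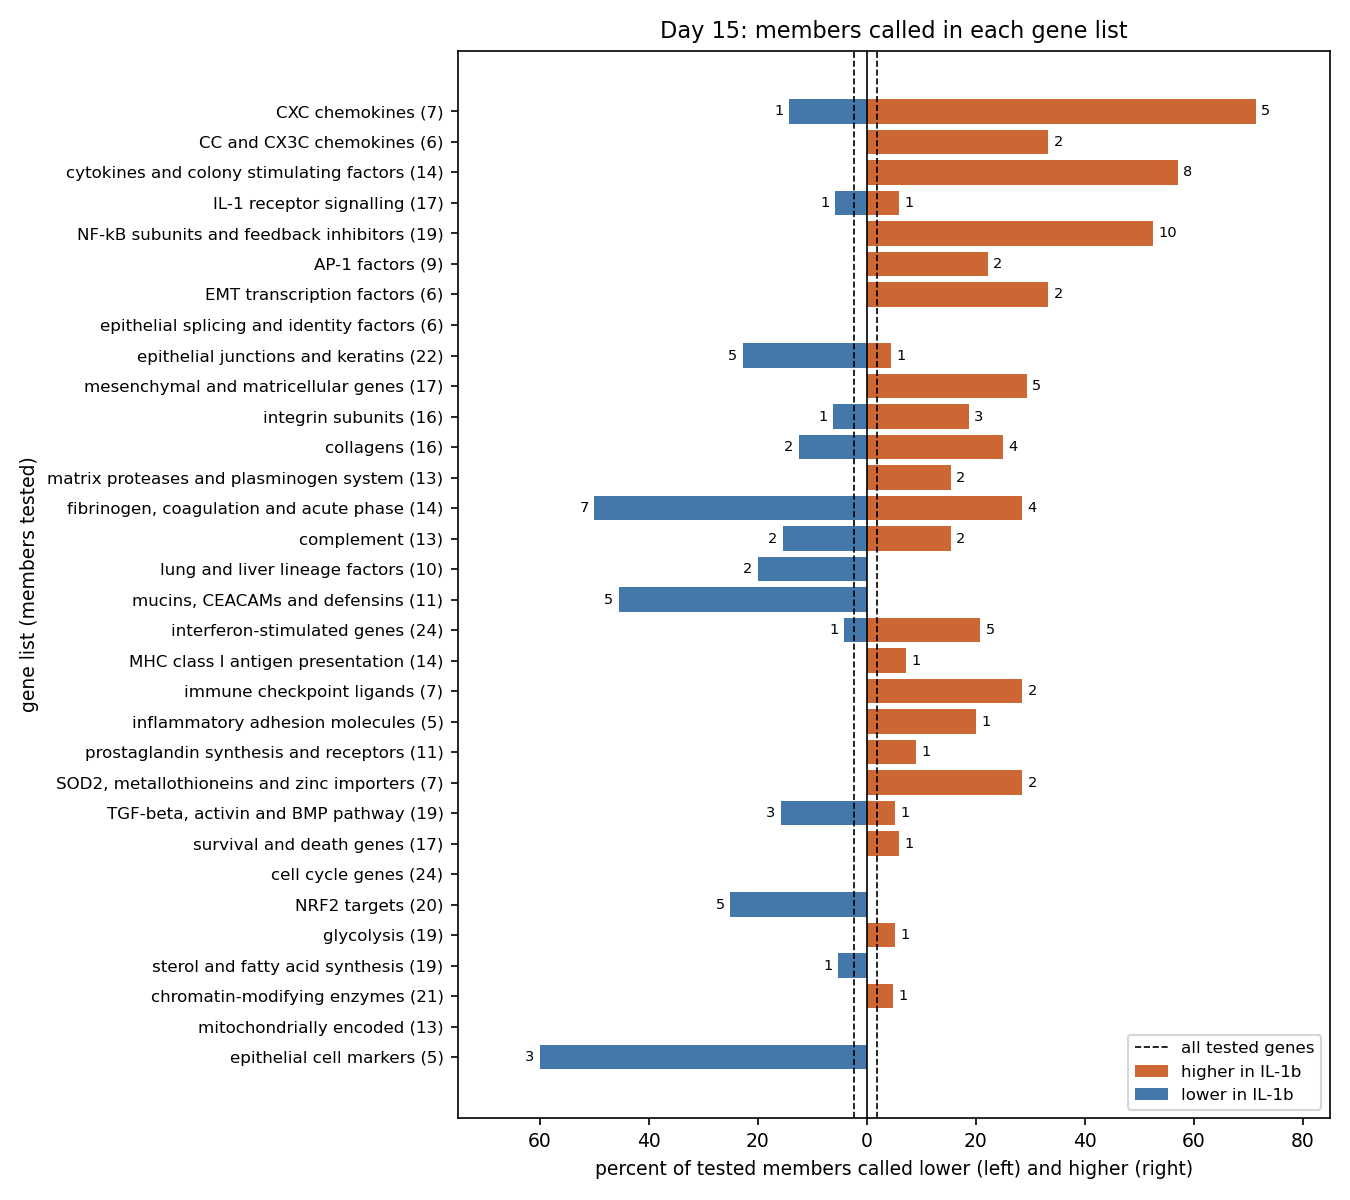
Share of tested members called higher (orange, right) or lower (blue, left) at day 15 in each gene list with at least 5 tested members, with the number called beside each bar. Dashed lines mark the shares over all 19180 genes tested, 1.94% higher and 2.30% lower; the SOD2 list holds no value for SOD2 itself, which was not matched by symbol.

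Of 6 EMT transcription factors, all tested, 2 rose and none fell. SNAI2 (Slug, chr8:49830157-49834299 in GRCh37), a repressor of CDH1, was at 2.54, 2.76 and 2.03 CPM in the controls and 14.2, 14.8 and 23.5 CPM with IL-1β, a log2 fold change of 2.83 ± 0.48 (SE, adjusted p = 0.00018). ZEB2 was at 4.49, 4.23 and 4.11 CPM in the controls and 17.7, 17.5 and 38.3 CPM with IL-1β (2.51 ± 0.41, adjusted p = 0.0001). IL-1β replicate 3 was the highest library for both, and without it the log2 fold changes were 2.56 and 2.04, still past the thresholds. ZEB1 (29.1, 25.8 and 21.9 CPM against 33.7, 32.1 and 71.7 CPM, adjusted p = 0.24), TWIST1 (0.84 ± 0.30, adjusted p = 0.11) and SNAI1 (-0.79 ± 0.39, adjusted p = 0.29) did not pass. For ZEB1 most of the excess lay in IL-1β replicate 3, the other treated libraries lay a little above the controls, and the log2 fold change was 0.36 without replicate 3. Part of ZEB2's exons, 11.3%, overlaps another gene on the same strand in the annotation.

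The epithelial side of the programme moved the other way for a few abundant genes. Of 22 junction and keratin genes tested, 5 fell and 1 rose, and without IL-1β replicate 3 the counts were 6 and 1. CDH1 (E-cadherin, chr16:68771195-68869440 in GRCh37), the main adherens junction protein of epithelia, was at 231, 222 and 305 CPM in the controls and 69.5, 64.8 and 95.2 CPM with IL-1β. Its log2 fold change was -1.73 ± 0.30 (SE, adjusted p = 0.00023), so a reduced but still detectable level remained in all 3 treated libraries. KRT8, a keratin of simple epithelia, fell from 3225, 3529.6 and 4227 CPM to 744, 814 and 538 CPM (-2.39 ± 0.32), and its partner KRT18 fell from 1709, 1834 and 2301 CPM to 464, 478 and 265 CPM (-2.28 ± 0.34). KRT8 and KRT18 lie side by side on opposite strands of chromosome 12 with overlapping ends and have many pseudogene copies, so their counts are less certain than those of single-copy genes. CLDN2, a pore-forming claudin of tight junctions (-2.53 ± 0.31), and CGN, the tight junction protein cingulin (-1.73 ± 0.23), also fell, whereas the barrier claudin CLDN1 rose (1.43 ± 0.28). KRT7 did not pass (log2 fold change -0.07 ± 0.18, adjusted p = 0.86). Keratins outside this list went both ways. KRT85 (1.79), KRT81 (1.42), KRT86 (1.35) and KRT15 (1.33) were among those called higher, also without IL-1β replicate 3 and without control replicate 3. KRT4 and KRT3, given below, were lower. JUP, plakoglobin, was at 59.9, 61.1 and 168 CPM in the controls and 55.9, 51.5 and 40.8 CPM with IL-1β, and it did not pass (adjusted p = 0.39). Control replicate 3 lay far above the other two controls. None of 6 epithelial splicing and identity factors passed both thresholds. FOXA2, a factor of endoderm-derived epithelia, came closest at -0.98 ± 0.25 (adjusted p = 0.013), and FOXA1 was at -0.50 ± 0.25 (adjusted p = 0.3). FOXA1 was at 3.67, 3.58 and 3.86 CPM in the controls and 2.10, 2.15 and 3.72 CPM with IL-1β, where IL-1β replicate 3 alone overlapped the controls. Its log2 fold change was -0.80 without that library (adjusted p = 0.09) and -0.80 without the high mitochondrial libraries of the series (adjusted p = 0.039).

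Of 17 mesenchymal and matricellular genes tested, 5 rose and none fell, against 3 and none without IL-1β replicate 3, and the list's median log2 fold change was 0.65. Matricellular proteins sit in the matrix and steer adhesion without building it. TNC, tenascin-C, was at 1.89, 1.79 and 0.445 CPM in the controls and at 23.7, 25.6 and 24.2 CPM with IL-1β, with the treated libraries nearly equal (4.16 ± 0.51, adjusted p = 1.6e-06). NT5E, the ecto-enzyme CD73 that makes adenosine, was at 13.9, 13.3 and 12.4 CPM and 110.2, 105 and 161 CPM (3.25 ± 0.39). SPARC and LOX passed with all libraries but not without IL-1β replicate 3 (adjusted p = 0.2 and 0.18). The classical markers had smaller values. VIM, vimentin, was at 624, 615 and 651 CPM in the controls and 866, 867 and 1599 CPM with IL-1β, and its log2 fold change of 0.82 ± 0.24 passed the test (adjusted p = 0.034) but not the 2-fold limit, falling to 0.46 (adjusted p = 0.43) without IL-1β replicate 3. CDH2, N-cadherin, was at 95.5, 92.5 and 102 CPM and 141, 134 and 197 CPM (0.70 ± 0.17, adjusted p = 0.0071). FN1, fibronectin, and ACTA2, smooth muscle actin, overlapped between the groups (0.19 ± 0.25 and 0.32 ± 0.31, adjusted p = 0.71 and 0.63). FN1 was at 145, 131 and 396 CPM in the controls and 247, 231 and 291 CPM with IL-1β, so control replicate 3 alone made the overlap. Without that library the FN1 log2 fold change was 0.89 (adjusted p = 0.0025), past the test but not the 2-fold limit.

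Matrix and adhesion genes moved in both directions. Among 16 integrin subunits tested, 3 rose and 1 fell, and among 16 collagens 4 rose and 2 fell. Without IL-1β replicate 3 the counts were 3 and 0 for integrins and 3 and 2 for collagens. ITGB3, the β3 subunit that pairs with αv, rose from 6.68, 5.64 and 4.65 CPM to 25.2, 23.9 and 31.6 CPM (2.25 ± 0.27), and 33.2% of its exonic sequence is shared with another annotated gene on its strand. ITGA2, a collagen receptor subunit, rose (1.54 ± 0.23). The rise of ITGA1 passed only with IL-1β replicate 3 included (0.64, adjusted p = 0.27 without it), and so did the fall of ITGB4, the hemidesmosomal subunit (-1.36, adjusted p = 0.072). COL4A3 (-2.78 ± 0.53) and COL4A4 (-2.59 ± 0.45), chains of one type IV collagen network of basement membranes, fell, while COL4A5 rose (1.24 ± 0.31). COL4A6 rose with all libraries (1.79 ± 0.50) but did not pass without IL-1β replicate 3 or without control replicate 3. The transmembrane collagens COL17A1 (2.54 ± 0.50) and COL13A1 (2.43 ± 0.46) rose. TGFBI, a secreted adhesion protein, was among the higher genes with the largest mean CPM, at 999.6, 1033 and 926 CPM in the controls and 2542, 2577 and 2268 CPM with IL-1β (1.32 ± 0.13). Of 13 matrix proteases and plasminogen genes tested, MMP2 (1.91 ± 0.58) and PLAT (1.03 ± 0.20) passed with all libraries. Neither passed both thresholds without IL-1β replicate 3, when 1 other member rose and 1 fell.

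Hepatocyte-type secretory genes that A549 cells express split in both directions. Of 14 fibrinogen, coagulation and acute-phase genes tested, 4 rose and 7 fell, against 4 and 6 without IL-1β replicate 3. SAA1 (5.79 ± 0.66) and SAA2 (4.77 ± 0.58), the serum amyloid A genes, rose, as did SERPINA1, which encodes α1-antitrypsin (3.98 ± 0.55), and LCN2, an iron-trapping lipocalin (3.37 ± 0.52). SAA1 and SAA2 are near-identical, so reads may be shared between them. All 3 fibrinogen chains fell. FGB was at 8.46, 10.4 and 17.0 CPM in the controls and at 0, 0.174 and 0.310 CPM with IL-1β (-6.41 ± 0.64, adjusted p = 5.9e-08), FGA fell by 4.21 ± 0.48 on the log2 scale, and FGG kept 2 reads over the 3 treated libraries, 38.8 times less than the pooled control level (10.4 to 325). The coagulation factor F5 (-3.10 ± 0.60) fell too, and so did AGT, angiotensinogen (-4.65 ± 1.10), which did not pass without control replicate 3. Complement split in the same way: C3, at 414, 410.5 and 548 CPM, reached 1199, 1189.8 and 1504 CPM (1.5 ± 0.25), and C5 fell from 42.2, 41.7 and 107 CPM to 5.01, 5.69 and 9.21 CPM (-3.28 ± 0.41). Of 10 lung and liver lineage factors tested, 2 passed. HNF4A, a lineage factor of hepatocytes and gut, fell from 16.4, 18.6 and 25.6 CPM to 1.75, 1.51 and 1.14 CPM (-3.75 ± 0.47, adjusted p = 2.1e-06). Its groups did not overlap, and its call held in each fit that left out 1 library.

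Of 11 mucins, CEACAMs and defensins tested, which serve mucosal secretion and defence, 5 fell and none rose, against 3 and none without IL-1β replicate 3, and the list's median was -1.89. DEFB1, an antimicrobial β-defensin, was at 23.1, 26.8 and 29.7 CPM in the controls and 0.501, 0.697 and 0.103 CPM with IL-1β (-5.78 ± 0.67, adjusted p = 7.3e-07). CEACAM6, a cell-adhesion glycoprotein, was at 2.90, 2.17 and 16.2 CPM and 0.150, 0.116 and 0 CPM (-5.99 ± 0.89). MUC5B, a gel-forming airway mucin, was at 145, 92.7 and 298 CPM and 20.1, 15.2 and 26.4 CPM (-3.12 ± 0.62). Control replicate 3 held the highest control level of all 3 genes, and the treated libraries lay below every control. MUC5AC and SLPI passed with all libraries but not without IL-1β replicate 3. The squamous keratin KRT4 was among the 10 largest falls of genes with a symbol, from 34.2, 37.7 and 57.9 CPM to 1.05, 0.639 and 0.828 CPM (-5.66 ± 0.61), as was FXYD2, a regulator of the sodium pump (-5.01 ± 0.65). LINC02747, a long non-coding RNA, had 37 reads over the controls and 0 over the treated libraries, so it was at least 10.4-fold lower (3 reads over the group taken as the floor). KRT3 had 20 reads and 0, at least 5.62-fold lower.

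C15orf48, a small mitochondrial protein related to a respiratory chain subunit, was at 2.19, 2.49 and 2.08 CPM in the controls and 73.8, 78.6 and 196 CPM with IL-1β (5.68 ± 0.48), and 21.6% of its exonic sequence overlaps another gene on its strand. BHLHE41, a circadian repressor, was at 0.355, 0.163 and 0.297 CPM and 8.21, 6.85 and 18.3 CPM (5.31 ± 0.58). IL-1β replicate 3 held the highest level of both, and without it their log2 fold changes were 5.08 and 4.76. The rest of the 10 largest changes in either direction, among genes with a symbol, rested on few reads in 1 group. C6orf58 had 2 reads over the controls and 80 over the treated libraries, 47.5 times the pooled control level (12.7 to 399). PSAPL1 had 50 and 1 reads, 42.1 times less (7.23 to 1698), and PRODH2 had 47 and 1 reads, 39.6 times less (6.77 to 1598). PRODH2 did not pass without IL-1β replicate 3.

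Of 19 genes of the TGF-β, activin and BMP pathway tested, 3 fell and 1 rose. INHBB (chr2:121103712-121109379 in GRCh37), the βB subunit from which activin B is made, had the smallest adjusted p of all genes. It was at 132, 127 and 155 CPM in the controls and 5.46, 5.17 and 6.62 CPM with IL-1β, a log2 fold change of -4.59 ± 0.22 (SE, adjusted p = 4.1e-14), and leaving out any 1 library moved it only between -4.69 and -4.50. BMP4, a secreted ligand (-1.67 ± 0.33), and SMAD6, an inhibitor of BMP signalling (-1.58 ± 0.25), fell. RUNX2, a transcription factor of bone and of invasive tumour cells, rose from 11.8, 10.5 and 12.3 CPM to 27.5, 26.0 and 26.2 CPM (1.21 ± 0.20). TGFB1 did not pass (-0.14 ± 0.32, adjusted p = 0.84), and its sign turned to 0.19 without IL-1β replicate 3. MAP4K1, a kinase best known in blood cells, fell with all libraries (-1.18 ± 0.32, adjusted p = 0.019) but did not pass without IL-1β replicate 3 (-0.94, adjusted p = 0.13).

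Apart from the NRF2 targets and the SOD2 and metallothionein list, each metabolic or housekeeping list had at most 1 member called. That is too few to set apart from the background shares. Of 20 NRF2 targets, 5 fell and none rose, which is 25% lower against a background of 2.30%. They were the aldo-keto reductases AKR1C2 (-1.80 ± 0.26), AKR1B10 (-1.65 ± 0.17), AKR1C3 (-1.57 ± 0.24) and AKR1C1 (-1.27 ± 0.25) and the transketolase TKT (-1.06 ± 0.30), the last not passing without IL-1β replicate 3. The AKR1C genes are near-identical copies, so only the family as a whole is well placed. ALDH1A1, an aldehyde dehydrogenase that makes retinoic acid, was at 4856, 4903 and 5938 CPM in the controls and 2208, 2242 and 2946 CPM with IL-1β (-1.09 ± 0.17), and was just under the 2-fold limit without control replicate 3 (-0.99). SCD, the fatty acid desaturase, was the only gene called among 19 of sterol and fatty acid synthesis, and 17 of the 19 had values below 0, with a median of -0.66. Over all 19180 genes tested, 9242 had values above 0. SCD did not pass without control replicate 3. HK1, hexokinase 1, was the only one of 19 glycolysis genes to rise (1.30 ± 0.21). HDAC9, a histone deacetylase, was the only one of 21 chromatin-modifying enzymes (1.66, 1.41 and 1.63 CPM against 5.71, 6.80 and 13.0 CPM, 2.42 ± 0.40). BCL2A1, an anti-apoptotic NF-κB target, was the only one of 17 survival and death genes, from 1.60, 1.41 and 0.742 CPM to 16.4, 16.8 and 26.0 CPM (3.98 ± 0.49). The cell death inhibitors BIRC3 (2.06) and BIRC2 (1.06), which were also called higher, were counted in the NF-κB list instead. MT2A, a metallothionein (1.53 ± 0.32), and SLC39A8, a zinc importer (1.27 ± 0.31), rose, the latter not passing without IL-1β replicate 3. None of 24 cell cycle genes tested passed, with a median of -0.10. The 13 mitochondrially encoded genes had a median of 0.72 with all libraries, and -0.06 without IL-1β replicate 3, and none was called in either fit.

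Day 15 was set beside day 6 and day 21, each measured against its own controls. Of the 372 genes higher at day 15, 370 had a positive fold change at day 6 and 371 at day 21, and 228 and 287 of them were called higher there. Of the 442 lower genes, 438 and 440 had a negative fold change at the other times, and 186 and 293 were called lower. Over all 19180 genes tested the sign was shared for 54.4% with day 6 and 69.1% with day 21. The library with over 10% of reads on mitochondrial genes was a control at day 6 (replicate 2). At day 15 (replicate 3) and day 21 (replicate 2) it was an IL-1β library. The mitochondrially encoded genes had a median log2 fold change of -1.03 at day 6, 0.72 at day 15 and 0.31 at day 21. Whether this placement changed the shares of signs was not tested. The higher and lower genes were picked at day 15, which favours larger values at that time. The higher genes had a median log2 fold change of 1.46 at day 6, 1.76 at day 15 and 1.69 at day 21, and that of the lower genes was -1.20, -1.84 and -1.62.

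A direct test of whether the response to IL-1β differed between day 15 and day 6 called 0 of 19180 genes (0%) in edgeR's quasi-likelihood test, with 508 genes at an unadjusted p below 0.05, and DESeq2's Wald test called 2. The same test against day 21 called 0 (0%), with 213 genes at an unadjusted p below 0.05, and DESeq2 called 0. These unadjusted numbers are 2.65% and 1.11% of the genes tested. Both lie below the share of 0.05 that evenly spread p-values would give, so neither is an excess. A count of 0 does not show that the responses were equal. INHBB had the smallest p against day 6: its log2 fold change was -3.15 ± 0.22 (SE) at day 6, -4.59 ± 0.22 at day 15 and -4.97 ± 0.23 at day 21, and the difference of -1.45 ± 0.28 had an adjusted p of 0.28. With the replicate number as a block this difference passed (adjusted p = 0.0036). ABAT, the enzyme that breaks down the neurotransmitter GABA, was at 1.82 ± 0.29, 3.75 ± 0.30 and 4.67 ± 0.31 at the 3 times (difference from day 6 1.93 ± 0.41, adjusted p = 0.59). DESeq2's 2 calls were these same 2 genes. HGD, an enzyme of tyrosine breakdown, and DEFB1 were called lower at day 15, with log2 fold changes of -4.52 and -5.78. Their differences from day 6 were -2.71 ± 0.73 and -2.93 ± 0.82 and did not pass, at an adjusted p of 0.82 for both. SNAI2 (1.64 ± 0.49 at day 6) and ZEB2 (1.36 ± 0.40) had larger estimates at day 15, and CXCL8 (7.10 ± 0.45) and CSF3 (10.19 ± 1.12) smaller ones, with differences of 1.19 ± 0.67, 1.14 ± 0.56, -1.24 ± 0.54 and -4.08 ± 2.50 that did not pass. Against day 21 the smallest adjusted p was 0.994.

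**Figure D4:**
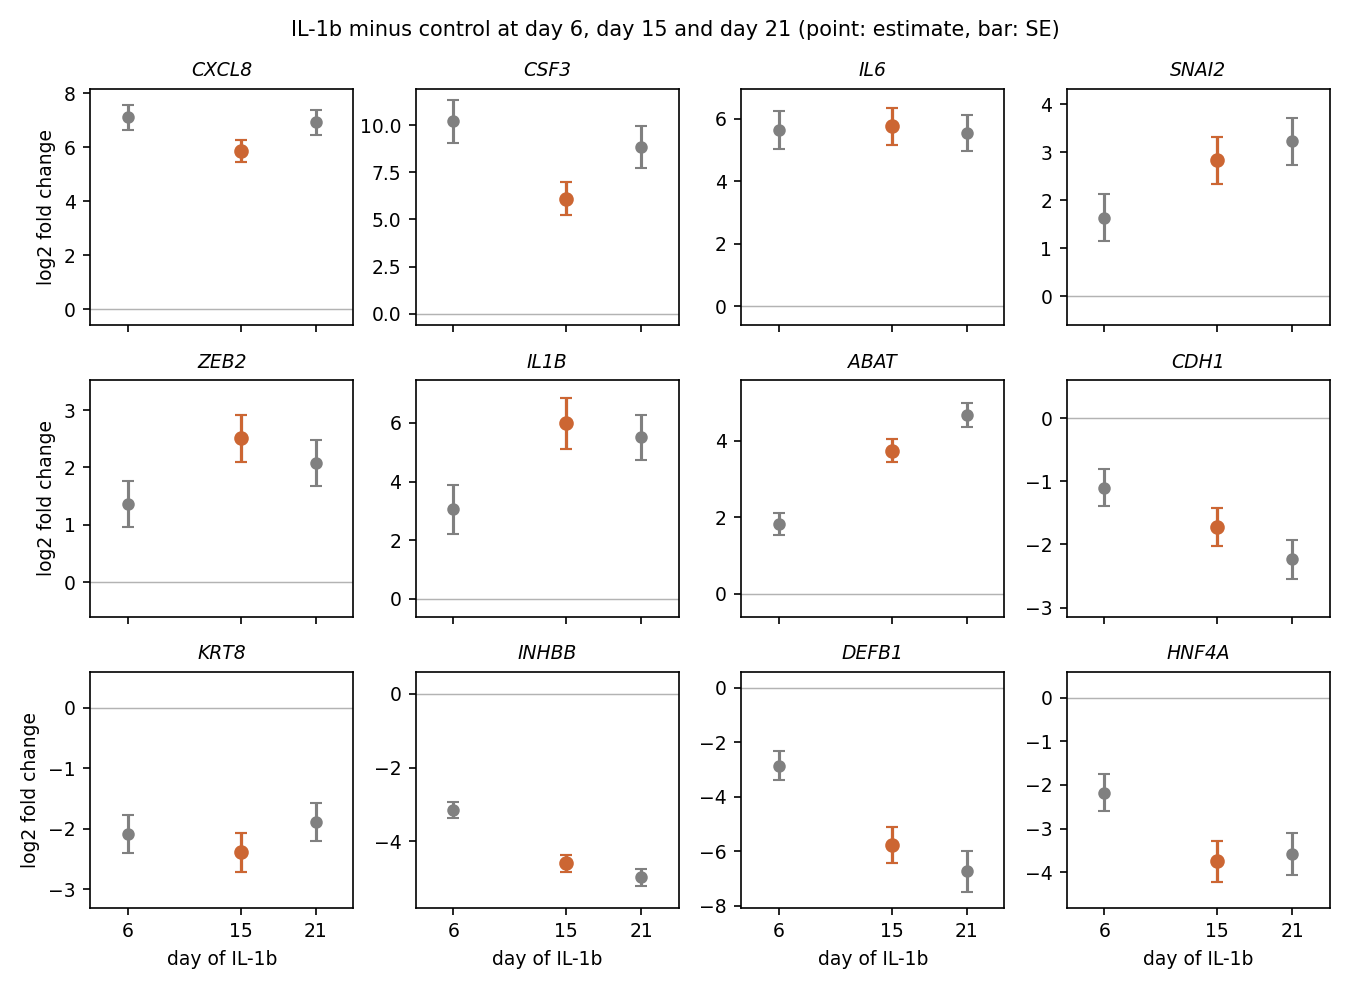
Log2 fold change of IL-1β over control at day 6, day 15 (orange) and day 21 for 12 genes, as the estimate with 1 SE from the fit of all 36 libraries. INHBB runs from -3.15 at day 6 to -4.59 at day 15, and no difference between day 15 and another time passed the test in this fit. Under alternatives, the difference from day 6 passed for INHBB with the replicate block and with DESeq2, and for ABAT with DESeq2 and with the GC correction.

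Fold changes followed base composition, most of all in IL-1β replicate 3. Over the 18611 tested genes with a known exonic GC content, the correlation of the day 15 log2 fold change with GC was -0.35 across genes, which are not independent replicates. When IL-1β replicate 3 was set against control replicate 3, the median log2 ratio ran from 0.73 in the tenth of genes with the lowest GC to -1.62 in the tenth with the highest. In the other two treated-to-control ratios with the same number it ran only from 0.02 to -0.11 and from 0.03 to -0.07. Leaving out IL-1β replicate 3 brought the correlation to -0.09, and a GC correction of each library brought it to -0.04. The median GC content was 46.1% in the higher and 54.4% in the lower genes with all libraries, and 48.7% and 50% without IL-1β replicate 3. With the GC correction 440 genes were higher and 450 lower, 344 of the 372 and 374 of the 442 among them. Mitochondrial share, GC slope and low depth all stood apart in this same library, so their parts cannot be told apart. Among the genes named above, TKT, MAP4K1, ITGA1, ITGB4 and PTGS2 were not called with the GC correction, nor were BIRC2 and MUC5AC, and SNAI2 (2.62), ZEB2 (2.24), CDH1 (-1.70), KRT8 (-2.09), CXCL8 (5.53), INHBB (-4.25) and HNF4A (-3.59) were, at the log2 fold changes given.

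**Figure D5:**
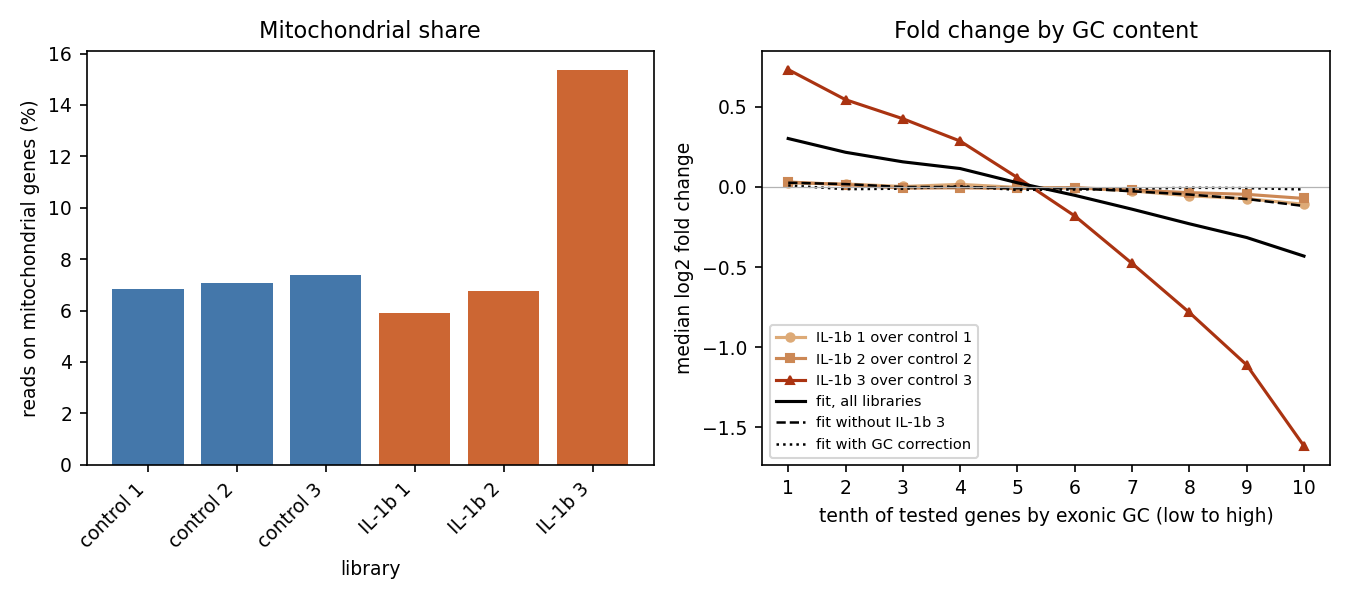
Left, percent of reads on mitochondrial genes in each of the 6 libraries, highest in IL-1β replicate 3 at 15.3%. Right, median log2 fold change in equal bins of the tested genes ordered by exonic GC content, for each treated library over the control of the same number and for 3 fits; the ratio with IL-1β replicate 3 falls from 0.73 to -1.62 while the other two stay near 0.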

How the data were processed

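Raw counts per Ensembl gene were used as deposited, 1 file per sample, for 63677 genes. Per the labels, the authors converted base calls with bcl2fastq 2.17, aligned reads of poly(A)-selected stranded libraries to GRCh37 with TopHat2 2.0.14 and Bowtie2 2.2.5, and the deposited counts were made with HTSeq 0.6.1. The annotation release and the strand setting were not given in the sources used here. The 5 HTSeq summary lines were left out. In the 6 libraries of day 15, reads outside any gene were 9.60% to 12.8% and ambiguous reads 3.04% to 4.04% as the summary lines give them.

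All 36 libraries were fitted together with edgeR 4.0.16 (R 4.3.3): TMM scaling, filterByExpr, which kept 19180 genes, 1 term per group for 12 groups, and the quasi-likelihood F test. A gene was called at a Benjamini-Hochberg adjusted p below 0.05 and a change of more than 2-fold. The standard error of a log2 fold change is its size divided by the square root of F. Differences between times were contrasts in the same fit. DESeq2 1.42.0 was an alternative, with the others named under the dependence on processing. Counting intervals are exact (Clopper-Pearson, 95%), and the floor is 3 reads over a group, both covering counting error only, since reads without molecular identifiers are not independent molecules. The labels do not say that replicates came from separate cultures, so p-values measure the spread between these samples, which may be technical.

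Symbols, exonic GC and overlaps came from GENCODE v44 lifted to GRCh37, which matched 55665 of the IDs, and promoter and miRNA sequences from RefSeq GRCh38.p14. SOD2 and 3 other listed genes were not matched by symbol, so no value is given for them by name. IDs without a symbol stayed in the test, 569 of those tested, and may include these genes. Genes were named by rule, among genes with a symbol: the 10 largest changes in each direction among called genes that moved the same way in every same-numbered treated-to-control ratio, up to 4 called members of each list (or 1 or 2 with the smallest p where none was called), genes that the study discusses, the 5 smallest p per direction in each difference test, and the 3 called genes with the highest mean CPM per direction. The largest fall of all called genes, a log2 fold change of -6.90 in ENSG00000250376, has no symbol and was left out by this rule. Where a count of 5 or fewer was given, other members were named after their values were seen, as were the keratins that rose and the example pseudogenes. The comparison, the lists and these rules were chosen with earlier results of these data known. A few genes counted in the lists are not reported here by name.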

Additional observations from a re-analysis of the deposited data

Results flagged for a closer look

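In 5 genes the treated libraries lay wholly on one side of the controls at day 15 and wholly on the other side at another time. All 5 had been named for a small unadjusted p in a difference test, so this pattern is partly how they were picked, and none of the differences passed (adjusted p = 0.82 against day 6 and 0.99 against day 21). KITLG, the ligand of the KIT receptor, had a log2 fold change of 0.54 ± 0.16 (SE) at day 15 and -0.23 at day 6. SLC4A4, a sodium bicarbonate transporter, was at 0.40 ± 0.21 at day 15 and -0.60 at day 6. For ZNF492 the values were 0.91 ± 0.40 at day 15 and -0.68 at day 21, and for the pseudogene FANCD2P2 they were 0.79 ± 0.23 and -0.21. CAPN12 ran the other way, at -1.21 ± 0.56 at day 15 and 1.00 at day 21. KITLG and SLC4A4 were at 0.34 and 0.48 at day 15 without IL-1β replicate 3.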

How the results depend on the processing

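The 372 higher and 442 lower genes stayed within 1.5 times of those counts with DESeq2's size factors or Wald test, total-count scaling, no filter on low counts, a GC correction, the high mitochondrial share as a covariate and without the 11 libraries with over 10% of reads on mitochondrial genes. A separate fit of the 6 libraries, with fewer samples to estimate the spread, called 212 higher and 212 lower. The test against a 1.5-fold change called 245 and 235, and adjusted p alone called 636 and 597. Leaving out 1 library in turn gave 305 to 398 higher and 256 to 436 lower, the 256 being without control replicate 3 and the cause not tested.

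The labels number replicates in both groups, but same-numbered samples of day 15 did not all deviate together by the rule set for pairing (correlations of deviations 0.07, 0.16 and 0.13, where each would have to exceed 0.1), and IL-1β replicate 1 correlated better with control replicate 2 (0.10). At day 6 the same-number values were 0.19, 0.09 and 0.38. At day 21 they were 0.23, 0.20 and 0.26, all above 0.1, and every pair of different numbers was below 0. With the replicate block, 421 genes were higher and 491 lower in the fit of 36 libraries, and 36 and 38 in the separate fit of 6, which leaves few degrees of freedom. For the difference between day 15 and day 6, where the test of all libraries called 0, DESeq2 called 2 (INHBB and ABAT), the replicate block 1 (INHBB, adjusted p = 0.0036), and the GC correction 2 without and 2 with the block (LSR and ABAT). The causes were not tested. Against day 21 each alternative that was run called 0, and the separate fits of 6 libraries give no value for either difference.

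Of 99 named genes that were called, 1473 of 1666 values under the alternatives kept direction and call, 193 kept direction only and 0 reversed. Signs turned in 6 named genes, none of which passed both thresholds under any alternative run. With the mitochondrial covariate the MT-ND4L log2 fold change was -0.067 and the MT-ND3 log2 fold change -0.033. Without IL-1β replicate 3 ACTA2 was at -0.14 and TGFB1 at 0.19, and without the high mitochondrial libraries at -0.15 and 0.19. With the GC correction TGFB1 was at 0.28 and ITGAM at 0.025, and with the block added at 0.29 and 0.013. Leaving out 1 library gave -0.14 to 0.64 for ACTA2, -0.35 to 0.19 for TGFB1 and -0.079 to 0.89 for FN1, the last without control replicate 3, where FN1 passed the test (adjusted p = 0.0025) but not the 2-fold limit. Depth limited the genes with few reads in 1 group: of the called genes, 15 higher had 1 to 3 reads over the controls, and 3 lower had 0 and 13 had 1 to 3 over the treated libraries.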

Other observations

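Several listed genes passed edgeR's quasi-likelihood test at day 15 with changes below 2-fold, and their libraries did not overlap. The groups did not overlap for 25.4% of all genes tested, and these genes were picked after their values were seen. CD44, the hyaluronan receptor, was at 325, 306 and 365 CPM in the controls and 666, 624 and 679 CPM with IL-1β (log2 fold change 0.98 ± 0.16, SE). Among death and survival genes, BID, which links death receptors to mitochondria, rose by 0.96 ± 0.11, CFLAR, an inhibitor of caspase-8, by 0.68 ± 0.13 and the death receptor FAS by 0.86 ± 0.22, whereas the BH3-only gene BCL2L11 fell by 0.74 ± 0.19 on the log2 scale, and did not pass without IL-1β replicate 3 (adjusted p = 0.068). FAS was at 29.2, 28.8 and 53.7 CPM with IL-1β, and at 0.51 (adjusted p = 0.24) without IL-1β replicate 3.

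At the cell surface, CD59, which blocks the complement membrane attack complex, rose by 0.92 ± 0.12 and CD47, a signal against phagocytosis, by 0.68 ± 0.12. B2M, the light chain of MHC class I, was at 188, 199 and 204 CPM in the controls and 254, 273 and 408 CPM with IL-1β (0.66 ± 0.19), and it did not pass without IL-1β replicate 3 (adjusted p = 0.36). ERAP1 rose by 0.83 ± 0.16, and by 0.61 without that library. TGFBR3, the co-receptor betaglycan, rose by 0.92 ± 0.12, and by 0.85 without it. PLAUR, the urokinase receptor, was at 49.9 and 53.7 CPM in IL-1β replicates 1 and 2 but 26.3 CPM in replicate 3, against 21.1 to 23.6 CPM in the controls, and its log2 fold change was 0.95 with that library and 1.21 without it.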
